A study of Mus musculus with 6 samples.

Results

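Neurofilament genes encode the intermediate filament proteins of axons. The set examined here has 4 genes: Nefl, Nefm and Nefh, for the light, medium and heavy neurofilament chains, and Ina, for the related alpha-internexin. Its members were taken by gene name from the authors' deposited table of differentially methylated regions, and every distinct region listed for one of these names, in any cytosine context, was kept. This gave 9 of the 9707 distinct regions in the table, from 17 of its 18732 annotation entries. Of the 4 genes, 3 had a region and Ina had none.

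The table compares single mouse embryos of embryonic day 4.5 (the late blastocyst) by whole-genome bisulfite sequencing, in which unmethylated cytosine is read as thymine. All 6 embryos were of C57BL/6 background, were injected as fertilised eggs with small RNAs of sperm at 2 ng/µl, were grown in culture at 37 °C in 5% CO2 and were taken about 108 h later. In the normal group (3 embryos, replicates 1, 2 and 4) the RNA came from normal males, and in the depressed group (3 embryos, replicates 1, 3 and 4) from males made depressive by stress. The comparison asks whether the state of the RNA donor leaves a different DNA methylation pattern in the embryo. Uninjected embryos were not analysed here, and the labels do not state the embryos' sex or how many males gave sperm.

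For each region the table holds 1 authors' mean level per group and no value per embryo. A spread between embryos, an interval or a test therefore could not be given for any level, and the read depth behind each is unknown. The completeness of bisulfite conversion was not tested, and unmethylated cytosine left unconverted would be read as methylated. The set was also proposed with the table's results known, so the members' direction and levels are a description of the list.

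In axons the light chain forms the core of the filament, on which the medium and heavy chains assemble with their long phosphorylated tails, and alpha-internexin joins them in central neurons. The filaments set axon calibre, and their proteins are widely used as markers of neurons and of axon damage. Cytosine methylation in mammals falls mainly on CG dinucleotides. Methylation of CHG and CHH sites, where H is any base but G, is scarce in most cells and better known from oocytes, pluripotent cells and neurons.

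All 9 neurofilament regions were lower in the depressed than in the normal group, as were 41.2% of all listed regions. There were 5 CHG regions, 3 CHH regions and 1 CG region. Lower regions make up 91.0% of all listed CHG regions, 20.4% of all CHH regions and 98.5% of all CG regions. All 9 neurofilament regions touched an exon or untranslated region (UTR). Among listed regions that do so the lower share was 90.6% in all, 90.7% for CHG, 88.4% for CHH and 98.2% for CG. The direction of the neurofilament regions was thus that of most listed regions in exons. Levels in the normal group ran from 9.72 to 35.3% and in the depressed group from 0.343 to 3.60%. Listed regions are those called different between the groups, so a gap at each region came with the selection. Over all 2630 lower regions with an exon or UTR, the medians were 32.2% in the normal and 0.548% in the depressed group. The median difference was -25.1 percentage points, against -31.3 over those 2630 regions. A CHH region on mitochondrial DNA was also lower, at 5.89% in the normal and 0.889% in the depressed group. Whether bisulfite conversion differed between the groups was not tested.

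**Figure D1:**
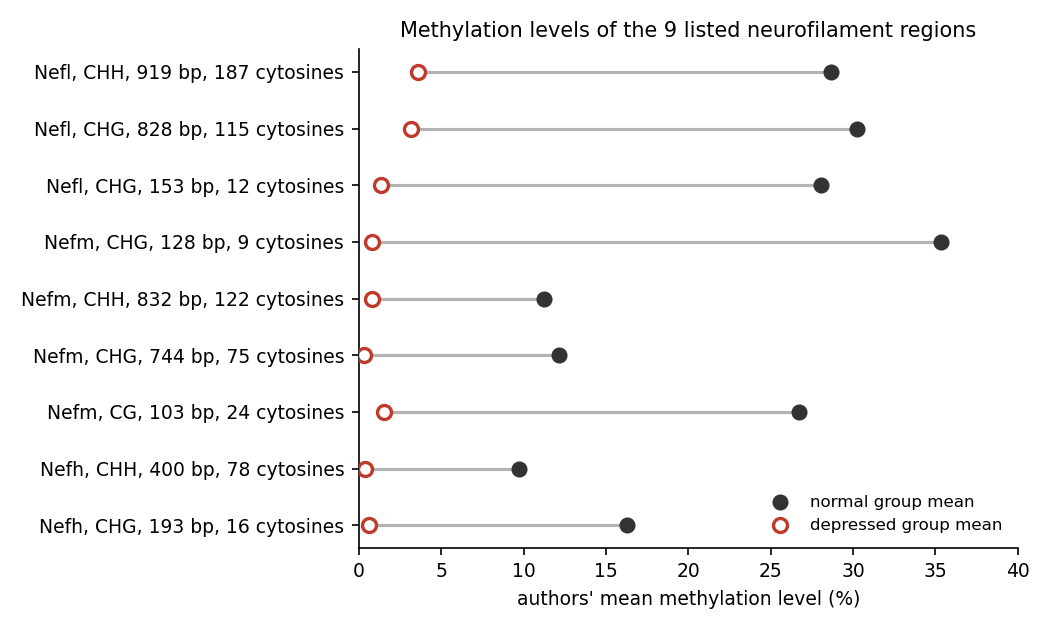
Authors' mean methylation level (%, x axis) of each of the 9 distinct regions (rows, with context, length and number of cytosines) in the normal group (filled) and the depressed group (open), with no error bars because values per embryo were not analysed. All depressed means lie at or below 3.60% and all normal means at or above 9.72%.

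Nefl, the light chain gene, lies on chromosome 14 (mm10, RefSeq span 68083863 to 68089095) and carried the most strongly listed region of the set. A CHH region at chr14:68083899-68084817, with 187 cytosines in 919 bp, was at 28.7% in the normal group and 3.60% in the depressed group. A CHG region at chr14:68083984-68084811, with 115 cytosines in 828 bp, was at 30.2% in the normal group and 3.17% in the depressed group. The CHG region lies wholly inside the CHH region and takes up 90.1% of it. The 2 contexts therefore come from the same stretch of DNA and the same libraries, and they are not independent observations. Levels in the normal group were close, with a CHH minus CHG difference of -1.54 points, near the median of -1.78 over 840 overlapping pairs of lower CHG and CHH regions.

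This stretch begins 36 bp inside the Nefl span, is listed with the 5′ UTR and an exon of Nefl, and lies in a CpG island (68083681 to 68084944). No CG region was listed there, although a CpG island is by definition rich in CG sites. Since only called regions are listed, the CG level there is not known for either group. The authors' region statistic was -1084 for the CHG region, the strongest of 1715 lower CHG regions. How the statistic is computed is not stated in any source used here. Only 1 lower CHG region had more cytosines. Per cytosine the statistic was 9.43 in absolute size, above the median of 5.60 over lower CHG regions, while its normal level of 30.2% was close to their median of 30.9%. The Nefl CHH region ranked 32 of 1415 lower CHH regions by the same statistic.

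The level left in the depressed group was comparatively high at Nefl. The depressed mean of 3.17% in the CHG region was at or above that of 95.2% of lower CHG regions, whose median was 0.174%. In the CHH region, 3.60% was at or above 88.9% of lower CHH regions, whose median was 0.637%. The normal level exceeded the depressed level by a factor of 9.54 in the CHG region and 7.96 in the CHH region, the smallest factors in the set. A second CHG region of Nefl, inside the gene at chr14:68086484-68086636 (12 cytosines, exon and intron, in the shore of the island), was at 28.1% in the normal and 1.33% in the depressed group. Its statistic of -66.9 ranked 728 of 1715, so at nearly the same normal level the shorter region stood in the middle of the list.

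The 3 Nefl regions were also listed for Nefm, the medium chain gene. The deposited annotation gives the first pair as 3′ UTR and exon of Nefm and the inner region as intron of Nefm. In RefSeq, however, the Nefm span (chromosome 14, 68119545 to 68125004) begins 32.9 kb beyond the nearest of these regions. The gene model behind the deposited annotation therefore reached further than the RefSeq one. Of all 9707 regions, 3.51% were listed for more than 1 gene, and of the 2630 lower regions with an exon or UTR, 9.35% were. As listed, Nefm had 7 regions, Nefl 3 and Nefh 2, numbers reached by 1.41, 15.0 and 39.3% of the 4040 gene names. Counted inside RefSeq spans, Nefm had 4, reached by 7.79% of 3645 protein-coding genes with a region in their span, while Nefl and Nefh still had 3 and 2 (15.4 and 39.8%). Between the RefSeq spans of Nefl and Nefm lie 30.4 kb with 0 listed regions.

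Within its own span, Nefm had 3 overlapping regions near the upper-coordinate end and 1 further in. The CHH region at chr14:68123824-68124655 (122 cytosines) was at 11.3% in the normal and 0.800% in the depressed group. The CHG region at chr14:68123907-68124650 (75 cytosines) was at 12.1% in the normal and 0.343% in the depressed group. The CG region at chr14:68124546-68124648, with 24 CpGs in 103 bp, was at 26.7% in the normal and 1.53% in the depressed group. All 3 end 349 to 356 bp inside the upper end of the span and lie in an exon and in a CpG island (68123594 to 68125071).

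At this place all 3 contexts were lower together. The CG region lies inside both others and covers 12.4% of the CHH region and 13.8% of the CHG region. Joined where they overlap, lower regions of the whole table form 3115 loci, and 21 of them (0.674%) hold all 3 contexts. The normal level of the Nefm CG region, 26.7%, was low for its context, at or above that of only 2.42% of lower CG regions, whose median was 70.2%. It was not low for a region so rich in CpGs. Of the 18 lower CG regions with at least 24 CpGs, a group described after the values had been seen, 17 lay in CpG islands, and their median normal level was 17.3% (9.69 to 65.9%). The other 849 had a median of 70.3%.

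The fourth Nefm region, a CHG region at chr14:68120884-68121011 (exon and intron, 9 cytosines), had the highest normal level of the set, 35.3%, and stood at 0.794% in the depressed group. This is a difference of -34.6 points and a factor of 44.5, both the largest of the 9 regions, and it rests on the fewest cytosines. In Nefm the CHG level of the normal group was thus higher in the inner region (35.3%) than in the island (12.1%), while in Nefl it was nearly equal in both places (28.1% and 30.2%). With group means alone, no test of these differences between places was possible. Only 3 lower CHG regions had 75 or more cytosines, a count made after the values had been seen. They are those of Nefl and Nefm and 1 region on chromosome 17 listed with no gene name, at 6.56% in the normal and 1.02% in the depressed group.

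**Figure D2:**
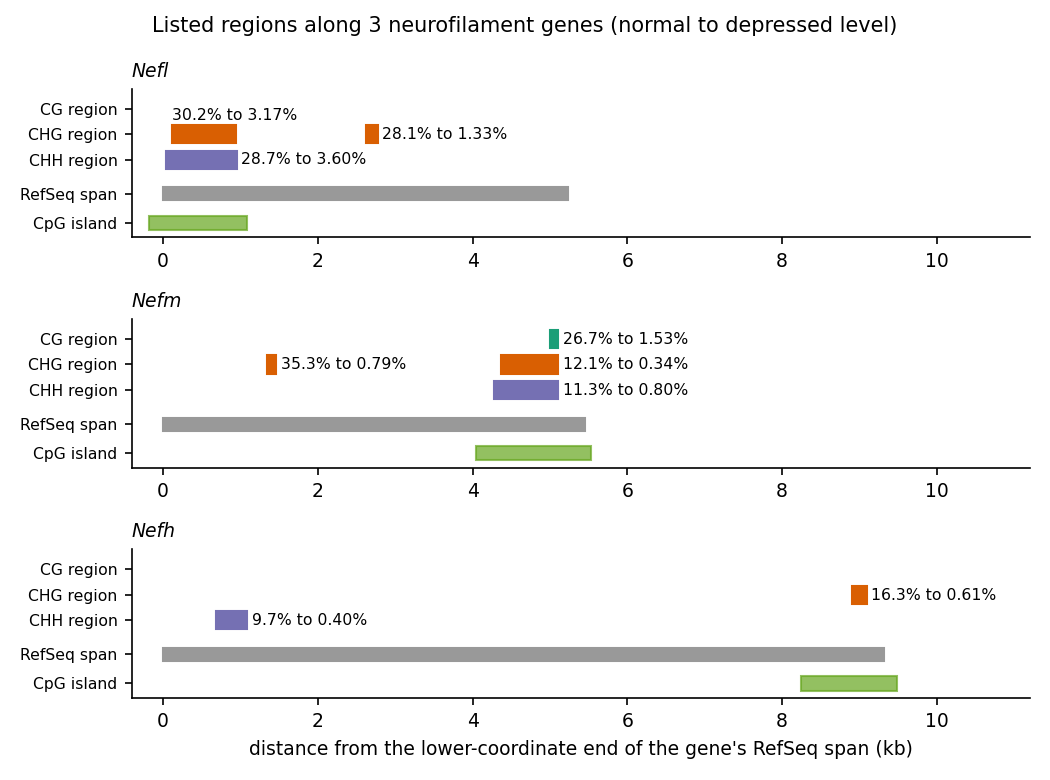
Positions of the listed regions along Nefl, Nefm and Nefh, as distance in kb from the lower-coordinate end of each RefSeq span (x axis), in rows for CG (green), CHG (orange) and CHH (purple) regions above the span (grey) and the CpG island (light green). Beside each region stands its normal and then its depressed level, and each gene has 1 locus in the island at one end of its span and 1 locus outside it.

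Nefh, the heavy chain gene on chromosome 11 (4938754 to 4948064), had 2 regions at opposite ends of its span. The CHG region at chr11:4947656-4947848 (16 cytosines, exon) lies in a CpG island (4946996 to 4948241), 216 bp inside the upper end, and was at 16.3% in the normal and 0.615% in the depressed group. The CHH region at chr11:4939441-4939840 (78 cytosines, exon, outside any listed island) was at 9.72% in the normal and 0.400% in the depressed group, a difference of -9.32 points and the smallest of the set. By the statistic the regions ranked 500 of 1715 for CHG and 519 of 1415 for CHH, both above the middle of their lists. Their normal levels were in the lower part of the list, at or above 16.3% of lower CHG and 17.2% of lower CHH regions.

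For the CHG context, the normal levels of the island regions ran from Nefl (30.2%) over Nefh (16.3%) to Nefm (12.1%). For CHH, the order of the strongest region of each gene was Nefl (28.7%), Nefm (11.3%) and Nefh (9.72%). Nefl was highest in both orders, and no step in them has a spread to be set against.

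Ina, on chromosome 19 (47014681 to 47025327), had 0 regions of any context, and 0 regions lay within 200 kb of it, among 254 on that chromosome. The nearest was 240.2 kb away, a CHG region in the 3′ UTR of Sh3pxd2a at 39.2% in the normal and 0.939% in the depressed group. The promoter window of Ina in RefSeq (GRCm38.p6, 300 bp on the plus strand, 47014431 to 47014730) holds 32 CG dinucleotides, and 9.52% of 32851 such windows hold as many or more. Since the table lists only called regions, the level at Ina in either group is not known, and its absence from the list does not show that the groups were alike there.

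Where the neurofilament regions can lie depends on the genes chosen, so their features are given as a description. Of the 9 regions, 6 lay in a CpG island, against 11.4% of all lower regions with an exon or UTR, and these 6 come from only 3 islands. None of the 9 touched a promoter entry, as 18.4% of such regions did, or a repeat, as 9.62% did. The median length was 400 bp (103 to 919 bp), against 173 bp. Listed regions covered 20.5% of the RefSeq span of Nefl, 17.6% of that of Nefm and 6.37% of that of Nefh. Over the 3645 protein-coding genes with a region inside their span the median was 0.358%, and 0.960, 1.26 and 4.99% of these genes reached the values of Nefl, Nefm and Nefh. These are short genes, for which a region of given length covers more. Among 3109 protein-coding genes with spans of 5.23 to 10.6 kb, the range of the 4 genes here, 6.01% had a lower region of any context (4.66% for CHG, 3.73% for CHH and 0.901% for CG) and 2.61% a higher one. The 3 of 4 found here were chosen from that list and cannot be read against this share.

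**Figure D3:**
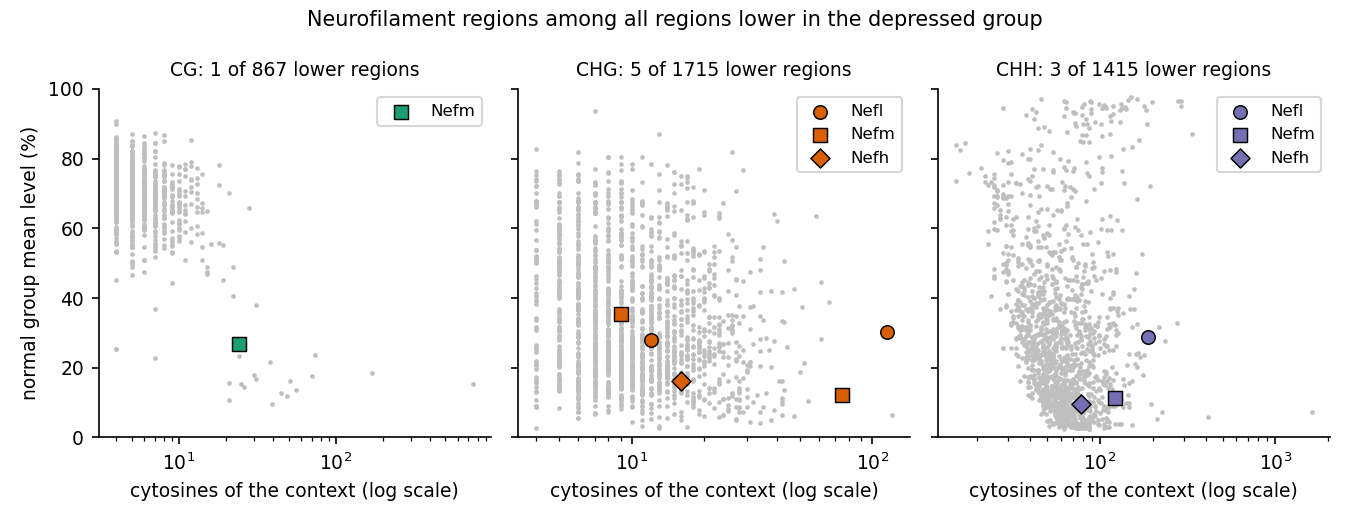
Normal group mean level (%, y axis) against the number of cytosines of the context (x axis, log scale) for all regions lower in the depressed group (grey) in the CG, CHG and CHH contexts, with the regions of Nefl (circle), Nefm (square) and Nefh (diamond) in colour. The Nefl and Nefm island regions, with 115 and 75 CHG cytosines, lie at the far right of the CHG panel, and the Nefm CG region lies among the CpG-rich regions of low normal level.

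The genes most like each neurofilament gene were sought over 855 named genes outside the lists used here, by the distance in percentage points over 4 values: the normal and the depressed level of the strongest CHG and the strongest CHH region. Nearest to Nefl were Trim9, a ubiquitin ligase gene of neurons (distance 2.73, CHG 32.3% in the normal and 2.93% in the depressed group), Tmem11 (3.44) and Abhd4 (3.53). As listed, Nefm has the same strongest regions as Nefl and so the same neighbours. With the regions of its own span, a choice made after the table had been seen, they were Capns1, a calpain subunit gene (0.655), and Ugt1a1 and Ugt1a10 (0.838 each), which have equal values. Nearest to Nefh were Ncs1, a neuronal calcium sensor gene (0.889, CHG 15.9% in the normal and 0.941% in the depressed group), Dvl3 (1.25) and Mapk8ip1 (1.77). The measure compares levels alone and covers 2 groups in 2 contexts.

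Of 17 other intermediate filament genes, 7 had a lower region and 3 a higher one, 2 of them both, against 10.2 and 9.78% of 21900 protein-coding genes. Gfap, the filament of astrocytes, had the largest differences for CHG (58.6% in the normal and 0.712% in the depressed group) and CHH (59.3% and 0.421%), both in its 3′ UTR. The keratin genes Krt8 and Krt18, whose products form the filaments of the trophectoderm, were lower in exons and 5′ UTRs, Krt8 with CHG 10.3% in the normal and 1.15% in the depressed group and Krt18 with CHH 17.4% and 0.662%. The filament-like genes Iffo1 and Iffo2 had CG regions, at 67.6% and 8.52% for Iffo1 and 9.69% and 1.27% for Iffo2, with the normal group first. The 3 genes with a higher region, Iffo2 and the lens filament genes Bfsp1 and Bfsp2, had it in an intron and in CHH context, while 11 of the 12 lower regions of the list touched an exon or UTR. The higher region of Iffo2 was at 33.0% in the normal and 50.3% in the depressed group. Bfsp1 also had the strongest lower CHH region of the list, in an intron, at 97.0% in the normal and 84.1% in the depressed group. The median difference over the 15 regions of this list was -9.15 points.

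Another list holds 37 genes whose products build, carry or modify the neuronal cytoskeleton around neurofilaments. Of these, 19 had a lower region, against 10.2% of protein-coding genes, 18 of them for CHG and 17 for CHH, against 6.40 and 5.37% of protein-coding genes. A lower CG region was listed for 4 of the 37, against 2.54%, and 5 had a higher region, against 9.78%. Every list compared here was chosen with earlier results known and not matched for gene length. Their counts therefore cannot be read against these shares. The strongest lower CHG regions were those of Map1a, a microtubule-associated protein gene (38.9% in the normal and 0.468% in the depressed group), Cdk5r2, an activator of the kinase Cdk5, which phosphorylates neurofilament tails (51.2% and 0.450%), Map2 (48.4% and 2.02%) and Map1b (20.8% and 0.282%). In CHH context Mapt, the tau gene (21.0% in the normal and 0.991% in the depressed group), the myosin motor gene Myo5a (29.3% and 0.277%) and Plec, the gene of the cytolinker plectin (32.6% and 5.02%), followed Map1a. Plec, Gsk3b and Map1a also had lower CG regions, with normal levels of 65.8, 58.3 and 55.6%. Of the 65 regions of this list, 60 were lower, and 52 of these touched an exon or UTR, a class in which 90.6% of all listed regions were lower. The median difference over its 65 regions was -31.2 points, against -25.1 for the neurofilament regions. The higher CHH regions of Map2, Ppp2ca and Dst lay in introns, with depressed levels between 3.28 and 4.18%. The only higher CHG region lay in an exon and intron of Map1a (1.43% in the normal and 18.9% in the depressed group).

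Markers of other cell types were listed as well. Of 13 glial marker genes, 6 had a lower region and 3 a higher one, against 10.2 and 9.78% of protein-coding genes. The lower ones include Mobp of oligodendrocytes (CHG 60.4% in the normal and 0.0398% in the depressed group) and the glutamate transporter genes of astrocytes Slc1a2 (CHG 51.0% and 0.756%) and Slc1a3 (CHH 32.0% and 0.393%), the last of which also has a higher CHH region in an intron. The 24 lower regions of the glial list had a median normal level of 40.8%, and 20 of them touched an exon or UTR, where 90.6% of all listed regions were lower. The myelin genes Mag and Mbp had higher regions, Mag for CHG in an exon (0.638% in the normal and 29.1% in the depressed group) and Mbp for CHH in an intron (1.22% and 5.56%), while Mbp was lower for CHG (26.5% and 0.128%). Of 18 marker genes of blastocyst lineages, 3 had a lower region (Sox2, Krt8 and Krt18) and 3 a higher one (Cdx2, Elf5 and Pdgfra), against the same 10.2 and 9.78%. Sox2, a gene of pluripotent and of neural stem cells, was at 62.3% in the normal and 0.749% in the depressed group for CHG, and Cdx2, a trophectoderm gene, at 0.0364% and 15.6%. Gfap, Krt8 and Krt18 are on 2 of these lists. With group means at called regions only, the labelled tissue could not be checked by markers. The part of other cells or material in the neurofilament levels was not tested.

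**Figure D4:**
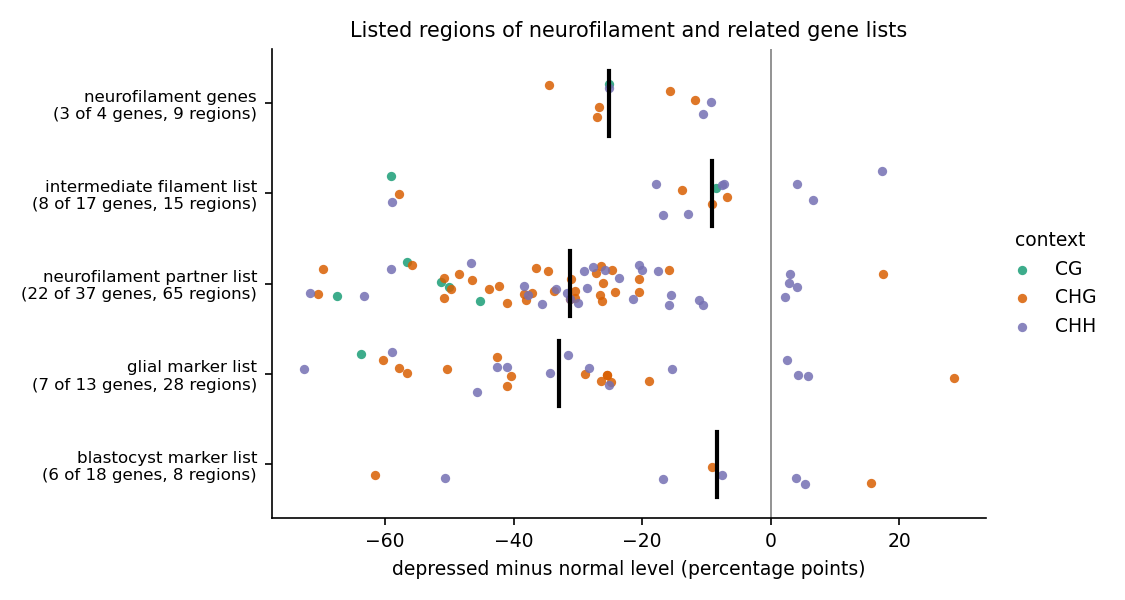
Depressed minus normal level (percentage points, x axis) of each distinct listed region for the neurofilament genes and the 4 related gene lists (rows), with points coloured by cytosine context, spread vertically at random, and a bar at the median. All 9 neurofilament points, each of a region touching an exon or UTR, lie between -34.6 and -9.32. Each of the other lists has points on both sides of 0 and also holds regions outside exons and UTRs. Of their regions touching an exon or UTR, 11 were lower and 0 higher in the intermediate filament list. The counts were 52 and 1 in the partner list, 20 and 1 in the glial list, and 5 and 1 in the blastocyst list.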

How the data were processed

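Per the submitters' processing notes, reads were handled with Trim Galore 0.3.3, Bismark and SAMtools on mm10. No source used here names the region caller, its thresholds or coverage filter, or says how embryos were pooled. Per the file headers, the deposited table holds, for either group, a mean level as a fraction between 0 and 1. It also holds the deposited difference of these fractions, the region statistic (a score) and the number of cytosines. Fractions and differences were multiplied by 100 here. Entries were collapsed by chromosome, start, end and context with Python 3.11.15 and pandas 2.3.3, and the collapsing was tested on simulated data. Gene spans came from RefSeq (GRCm38.p6); 3981 of 4040 gene names matched a symbol or unique synonym. A region counts as lower when the depressed mean is below the normal mean.

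The members and the lists were chosen with earlier results of these data known. Of each list, the text draws on up to 4 genes per context and direction with the strongest statistic, and the 3 nearest genes to each member are named. All results are counts and levels without a test. Alternatives changed the minimum difference (10 percentage points), cytosines (10), statistic, distance to the RefSeq span (10 kb), annotation class and joining of contexts. Sequences of the regions were not analysed here. Of the partner list, 2 genes that the rule for named genes picks are not reported here.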

Additional observations from a re-analysis of the deposited data

How the results depend on the processing

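The count of neurofilament regions was 9, all lower in the depressed group, and lay between 6 and 9 under 6 alternatives, the 6 being loci after overlapping regions of different contexts were joined. The median difference of -25.1 points ranged from -20.4 to -25.1. Genes with a lower region ranged from 5 to 7 in the intermediate filament list, 15 to 19 in the neurofilament partner list, 5 to 6 in the glial list and 2 to 3 in the blastocyst list. In all, 38 of 38 recomputed values stayed within 1.5 times the value reported. The counts could only stay or fall under these alternatives. With all 9 regions lower, the sign of the median could not change. No paired analysis was possible because the table holds group means and no values per embryo, so leaving out an embryo could not be done either. The depth behind each level is unknown and limits every level. The number of cytosines also differs, from 9 in the inner CHG region of Nefm to 187 in the CHH region of Nefl.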
